A study of Mus musculus with 9 samples.

Results

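The genes described here encode the subunits of the mitochondrial respiratory chain and of ATP synthase, the machinery of oxidative phosphorylation, in mouse long-term hematopoietic stem cells (LT-HSCs). They were chosen by symbol, as every gene of the count table whose name begins with Ndufa, Ndufb, Ndufc, Ndufs, Ndufv, Sdha to Sdhd, Uqcr, Cox4i, Cox5, Cox6, Cox7, Cox8, Atp5, mt-Nd, mt-Co, mt-Cytb or mt-Atp, without symbols that end in -ps. The choice was made with earlier results of these data known. The symbols took 119 of the 47643 genes. Of them, 83 are subunits encoded in the nucleus (36 of complex I, 4 of complex II, 8 of complex III, 19 of complex IV and 16 of complex V), 13 are subunits encoded by the mitochondrial chromosome (7, 1, 3 and 2 of complexes I, III, IV and V), 14 are assembly factors whose symbols share the same beginnings, and 9 are annotated pseudogenes, 5 of them with a number after the -ps. A filter on low counts left 104 of them: 78 nuclear subunits, 10 mitochondrially encoded ones, all 14 assembly factors and 2 pseudogenes.

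RNA was sequenced from donor-derived LT-HSCs, sorted as CD150+ cells of the Lin-cKit+Sca1+ compartment without Flk2 and CD48, of lethally irradiated recipients that had received C57BL/6 bone marrow of 3 genotypes, with 3 libraries per genotype. TKO marrow was homozygous for floxed Pik3ca (Pik3ca lox/lox) and floxed Pik3cb (Pik3cb lox/lox), lacked Pik3cd (Pik3cd-/-) and carried Mx1-Cre, δKO marrow carried the same alleles without Mx1-Cre, and WT marrow was wild type for the 3 PI3-kinase genes with Mx1-Cre. TKO and δKO therefore share the germline loss of Pik3cd and the floxed alleles, and Cre is present in TKO and WT but not in δKO. All recipients were given pIpC, 250 µg, 2 times, 48 h apart, and marrow was harvested 4 weeks later. Mx1-Cre is switched on by the interferon that pIpC induces and is not limited to stem cells. Marrow of 7 recipients was pooled per group before sorting, so the spread between libraries is not stated to be a spread between animals, and p-values measure only the spread between these libraries. The column of the remaining δKO library is numbered differently from any label, and that library is called unnumbered. Values are given in the order of replicates 1, 2 and 3, and for δKO in the order of replicate 1, replicate 2 and the unnumbered library.

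Oxidative phosphorylation passes electrons from NADH (complex I) and succinate (complex II) through ubiquinone, complex III and cytochrome c to oxygen at complex IV, and the proton gradient built on the way drives ATP synthase, complex V. Complexes I, III, IV and V are assembled from products of both genomes, whereas every subunit of complex II is nuclear. LT-HSCs are known to rely largely on glycolysis while quiescent and to raise mitochondrial respiration when they enter the cycle and differentiate.

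Library totals ranged from 31300343 to 60386097 counts. The δKO replicate 1 and unnumbered libraries stood apart, with 18180 and 18500 genes detected against 19703 to 22703 in the others. At gene level the floxed Pik3ca was at 52.8 to 67.98 CPM (counts scaled to a common library total) in TKO, 41.3 to 88.2 CPM in δKO and 45.8 to 65.02 CPM in WT, Pik3cb at 25.5 to 33.9 CPM in TKO, 33.2 to 101 CPM in δKO and 44.6 to 63.6 CPM in WT, and Pik3cd at 71.2 to 73.5, 38.5 to 91.2 and 98.2 to 139 CPM in the same order. Counts over whole genes cannot check the loss of single exons. The sorting markers Kit, Ly6a and Slamf1 had counts in every library, and markers of other cells are given with the results they move with. CPM are scaled by edgeR's TMM factors throughout, and where the levels of different genes are ranked they are given per kilobase (kb) of merged exon.

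The 13 mitochondrially encoded genes fell into 2 sets by their CPM, and the sequences show which of them share stretches with other annotated transcripts. mt-Co1, mt-Cytb, mt-Nd1, mt-Nd2, mt-Nd4, mt-Nd5 and mt-Nd6 were at 83.2 CPM or more in every library, while mt-Co2, mt-Co3, mt-Atp6, mt-Nd3, mt-Nd4l and mt-Atp8 never exceeded 5.05 CPM. For each gene, the share of 50-base windows of its transcript that also occur in a transcript of another annotated gene was counted. Every window of mt-Co2 was shared. The share was 99.9% for mt-Co3, 99.5% for mt-Atp6, 98.8% for mt-Nd4l and 98.000% for mt-Nd3, and among the well-counted genes 62.2% for mt-Nd4, 51.1% for mt-Co1, 8.19% for mt-Nd2, 7.61% for mt-Nd5 and 0% for mt-Cytb, mt-Nd1 and mt-Nd6. mt-Atp8 also shared none with annotated transcripts, and the end of its 204 bases overlaps the start of mt-Atp6. For mt-Co1, mt-Co2, mt-Atp6, mt-Co3, mt-Nd3, mt-Nd4l and mt-Nd4 the main partners were Gm29216, Gm28661, Gm10925, Gm28437, Gm28438, Gm10222 and Gm28439, annotated pseudogenes that lie side by side in the same order on the minus strand at chr1:24611535-24616197 (GRCm38), a nuclear copy of mitochondrial DNA. The partners of mt-Nd2 (Gm13339) and mt-Nd5 (Gm4076) lie elsewhere. On the mitochondrial chromosome mt-Atp8 lies between mt-Co2 and mt-Atp6. The genomic interval between their partners Gm28661 and Gm10925 was not searched, so a nuclear copy of mt-Atp8 there is not excluded. Aligned without gaps, mt-Co2 and Gm28661 had 0 differences over 681 bases, and mt-Co1 and the 492 bases of Gm29216 had 6, all within the first 90 bases of the overlap. The stretches below show these 2 pairs, 5′ to 3′ on the strand of the gene, with differing bases in capitals.
mt-Co1, chrM:6381-6470, plus strand: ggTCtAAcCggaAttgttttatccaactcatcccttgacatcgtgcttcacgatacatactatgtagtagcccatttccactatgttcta
Gm29216, chr1:24616108-24616197, minus strand: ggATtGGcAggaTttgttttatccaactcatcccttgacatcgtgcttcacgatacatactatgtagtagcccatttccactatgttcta
mt-Co2, chrM:7013-7102, plus strand: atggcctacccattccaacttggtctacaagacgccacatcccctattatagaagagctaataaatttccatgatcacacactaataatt
Gm28661, chr1:24615476-24615565, minus strand: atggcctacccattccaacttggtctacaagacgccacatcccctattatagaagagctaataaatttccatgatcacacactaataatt

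The nuclear copies were themselves at low levels: Gm28661 was at 7.18 to 19.4 CPM and Gm28437 at 2.42 to 5.57 CPM over the 9 libraries. Added to its copy, mt-Co2 reached 8.77 to 24.4 CPM. Per kb, mt-Co2 alone was at 4.79 CPM per kb over all libraries and mt-Co1 at 2889.7. How the authors' counting treated reads that match more than 1 place is not given in the sources used here, and its part in these low values was not tested. mt-Nd3 had 0 counts in the 6 WT and δKO libraries, which allows up to 3 counts per library, and 1 or 2 counts in TKO. The levels of these 6 genes are uncertain, and the counts of mt-Co1 and mt-Nd4, which share part of their windows, are uncertain as well. The plot of the mitochondrially encoded genes by library shows the gap between the sets.

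**Figure D1:**
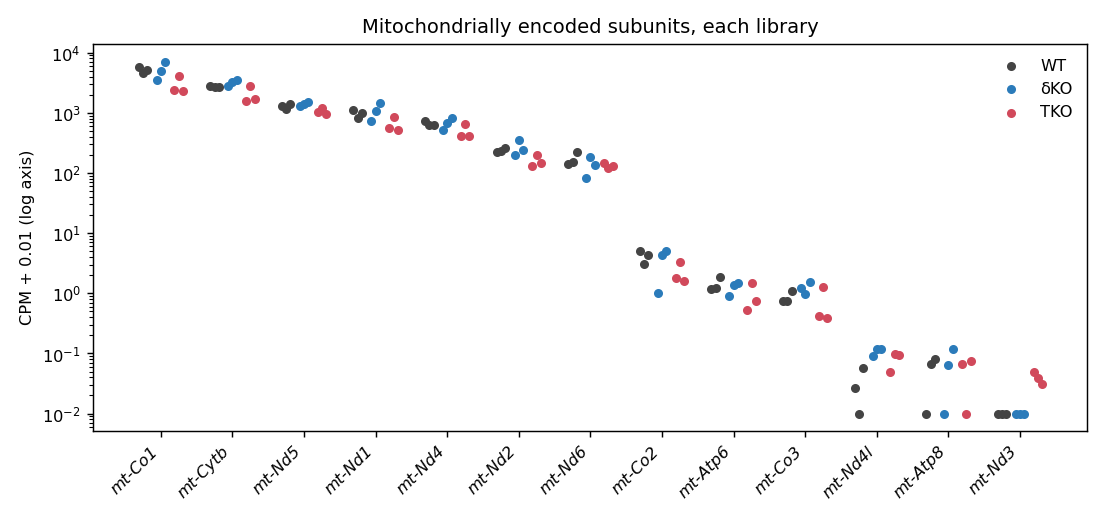
CPM of the 13 mitochondrially encoded subunits (x axis, ordered by mean level) on a log axis after adding 0.01, with 1 point per library for WT, δKO and TKO. The 7 genes on the left lie at or above 83.2 CPM in all libraries, the 6 on the right at or below 5.05 CPM, and among the 7 the TKO points of replicates 1 and 3 lie low for all but mt-Nd6.

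All 10 mitochondrially encoded genes that passed the filter had a lower fitted mean in TKO than in WT, and all 10 a lower one than in δKO (for mt-Nd6 by so little that the sign turned with upper-quartile scaling), but none passed the test (edgeR's quasi-likelihood test, called at an adjusted p under 0.05 and more than 2-fold). Their median log2 fold change was -0.52 against WT and -0.66 against δKO, beside 0.02 and -0.06 for all 18205 genes tested. mt-Co1, the catalytic core of complex IV, was at 5856, 4553 and 5119 CPM in WT, 3560.3, 5034 and 7107 CPM in δKO and 2439, 4165 and 2346 CPM in TKO. Every TKO library lay below every WT library, the δKO libraries overlapped with both, and the log2 fold change against WT was -0.79 (SE 0.30, edgeR unadjusted p = 0.021), with an adjusted p of 1.0. Against δKO it was -0.81 (SE 0.30, edgeR unadjusted p = 0.019). mt-Cytb, the cytochrome b core of complex III and free of shared sequence, was at 2816, 2645 and 2712 CPM in WT, 2839.8, 3209.6 and 3487 CPM in δKO and 1544, 2764 and 1674 CPM in TKO. Here TKO replicate 2 was within the WT range, the TKO and δKO groups did not overlap, and the log2 fold changes were -0.45 (SE 0.24, edgeR unadjusted p = 0.087) against WT and -0.67 (SE 0.24, edgeR unadjusted p = 0.017) against δKO. Without TKO replicate 1 the first was -0.30, and without TKO replicate 2 it was -0.76.

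Among the mitochondrially encoded subunits of complex I, which form part of its proton-pumping membrane arm, mt-Nd2 was at 221, 236 and 261 CPM in WT, 199, 358 and 241 CPM in δKO and 129, 196 and 146 CPM in TKO. The 3 TKO libraries were below every library of the other groups, with log2 fold changes of -0.61 (SE 0.27, edgeR unadjusted p = 0.043) against WT and -0.76 (SE 0.27, edgeR unadjusted p = 0.016) against δKO. mt-Nd1, free of shared sequence, was at 1123, 820.2 and 979 CPM in WT, 719, 1066 and 1467 CPM in δKO and 552, 858 and 521 CPM in TKO. Its TKO libraries overlapped with both other groups through TKO replicate 2, with log2 fold changes of -0.60 (SE 0.29, edgeR unadjusted p = 0.065) against WT and -0.75 (SE 0.29, edgeR unadjusted p = 0.026) against δKO. mt-Nd5 was at 1285, 1169 and 1422 CPM in WT, 1323, 1389 and 1491 CPM in δKO and 1049.8, 1192 and 947 CPM in TKO, with log2 fold changes of -0.28 against WT and -0.40 against δKO. All TKO libraries were below the δKO libraries, and TKO replicate 2 was within the WT range. mt-Nd4 was at 728, 629.8 and 635 CPM in WT, 513, 666 and 813 CPM in δKO and 408, 664 and 413 CPM in TKO, with log2 fold changes of -0.42 and -0.42 in the same order, and TKO replicate 2 again lay within the WT range. Without TKO replicate 2 these were -0.70 and -0.70. mt-Nd6, the single mitochondrial mRNA read from the opposite strand, was at 139.7, 155 and 219.7 CPM in WT, 83.2, 185 and 137 CPM in δKO and 144, 123 and 131 CPM in TKO. The differences from δKO also depended on single δKO libraries, with log2 fold changes of -0.53 for mt-Co1, -0.47 for mt-Nd1 and -0.26 for mt-Nd4 without the unnumbered library and -0.49 for mt-Nd2 without replicate 2. The log2 fold change of mt-Nd6 was -0.37 against WT and -0.03 against δKO, and its 3 genotypes overlapped. Without WT replicate 3 the first was -0.16. Without overlap between the groups, 2 of these 7 genes were lower in TKO than in WT (7.47% of all genes tested) and 3 lower than in δKO (4.74% of all genes tested).

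Per kb, the order of the well-counted mitochondrial genes over all libraries was mt-Co1 (2889.7 CPM per kb), mt-Cytb (2301), mt-Nd1 (941), mt-Nd5 (686), mt-Nd4 (441), mt-Nd6 (282) and mt-Nd2 (213). The ratio of mt-Co1 to mt-Nd5 counts, both on the same strand, came to 4.56, 3.896 and 3.600 in WT, 2.69, 3.62 and 4.77 in δKO and 2.32, 3.49 and 2.48 in TKO, so the genes did not keep 1 ratio across libraries. The share of all counts taken by mitochondrial ribosomal RNA, which moved with these genes, came to 15.6, 14.4 and 16.8% in WT, 9.63, 16.9 and 17.1% in δKO and 8.64, 15.7 and 6.88% in TKO. The same TKO replicates 1 and 3 that were low for the mRNAs were low for the ribosomal RNA, and TKO replicate 2 lay within the WT range in its ribosomal RNA. As a share of all counts, the mitochondrially encoded subunits of TKO replicate 2 came to 0.91%, below the 1.13 to 1.2% of WT.

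The nuclear subunits were also lower in TKO in most cases. Of the 78 tested, 62 (79.5%) had a lower fitted mean than in WT, beside 48.8% of all genes, and their median log2 fold change was -0.29. Against δKO the count was also 62 of 78, beside 52.8% of all genes, with a median of -0.29. The 2 comparisons share the TKO libraries. Between δKO and WT, 44 of 78 were higher in δKO (52.8% of all genes) and 34 lower (47.2%), with a median of 0.06 beside 0.05 for all genes. None of the 104 members passed edgeR's test in any comparison. The smallest adjusted p among them was 1 for TKO against WT, 0.46 for TKO against δKO and 0.7 for δKO against WT, and over all genes 0.00549%, 0% and 0.00549% were called. At an unadjusted p under 0.05, 3 members were lower and 0 higher in TKO than in WT (2.5% and 1.68% of all genes), 13 lower and 2 higher than in δKO (5.56% and 4.6%), and 2 lower and 4 higher in δKO than in WT (3.36% and 3.65%). Without overlap between the groups, 16 of the 104 were lower and 3 higher in TKO than in WT (7.47% and 6.88% of all genes), 13 lower and 4 higher than in δKO (4.74% and 6.98%), and 5 lower and 5 higher in δKO than in WT (7.39% and 4.13%). DESeq2 on all 9 libraries called 0, 4 and 1 members, beside 0.643%, 2.89% and 0.989% of the 18205 genes tested here: Ndufa11, Ndufb7, Ndufs3 and Cox7a1 for TKO against δKO, and Cox7a1 for δKO against WT.

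By complex, the median log2 fold change of the nuclear subunits for TKO against WT was -0.21 for complex I (36 genes), -0.11 for complex II (4), -0.32 for complex III (8), -0.34 for complex IV (14) and -0.21 for complex V (16). Lower fitted means were found for 24 of 36, 3 of 4, 8 of 8, 13 of 14 and 14 of 16 subunits. Against δKO the medians were -0.32, -0.09, -0.31, -0.37 and -0.18 in the same order. For δKO against WT they were 0.14, -0.27, 0.09, 0.03 and -0.01. The mitochondrially encoded median lay below that of every nuclear group in both TKO comparisons, as the plot of fold changes by complex shows. No test of the difference between complexes was made, since subunits measured in the same libraries are not replicates.

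**Figure D2:**
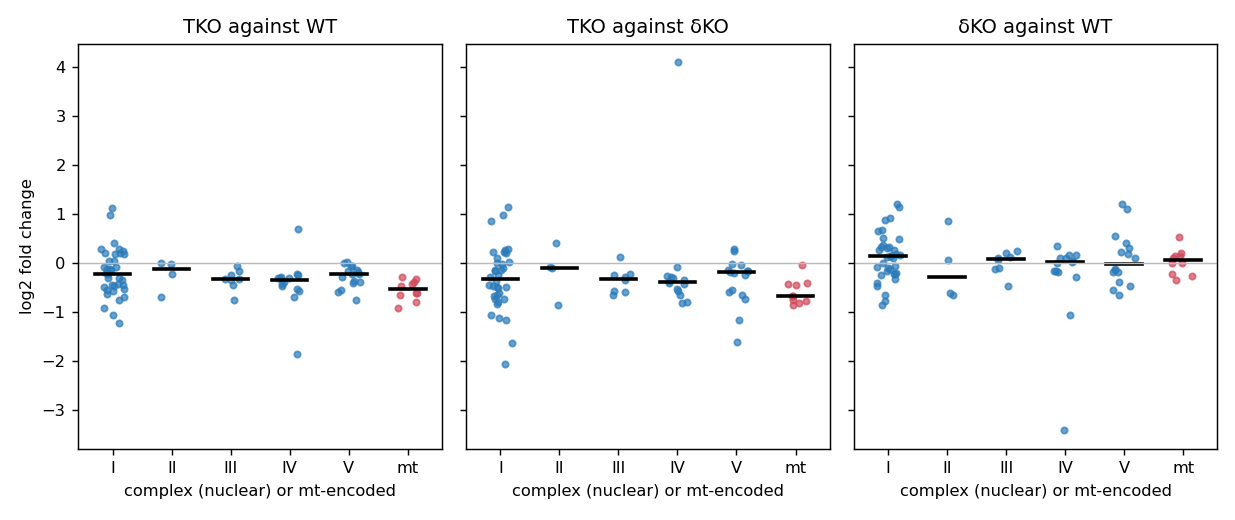
Log2 fold change (y axis) of each tested subunit in 3 comparisons, with nuclear subunits grouped by complex (blue) and mitochondrially encoded ones (red), and a bar at each median. For TKO against WT the medians run from -0.11 (complex II) to -0.52 (mitochondrially encoded), and the point at 4.10 for TKO against δKO is Cox7a1.

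The libraries of TKO, and those of δKO, lay far apart. As a summary per library, log2 CPM of each gene was centered on its mean over the 9 libraries and averaged over the genes. The 78 nuclear subunits gave 0.10, 0.17 and 0.17 in WT, -0.32, 0.35 and 0.06 in δKO and -0.38, 0.32 and -0.47 in TKO. The 10 mitochondrially encoded genes gave 0.20, 0.04 and 0.34 in WT, -0.27, 0.34 and 0.48 in δKO and -0.63, 0.10 and -0.62 in TKO. All 18205 genes tested gave 0.07, 0.18 and 0.23 in WT, -0.44, 0.13 and -0.33 in δKO and 0.07, -0.12 and 0.21 in TKO. The low subunit values of δKO replicate 1 were thus not below those of all its genes. WT libraries lay close together, TKO replicates 1 and 3 were the lowest of all libraries for both sets, and TKO replicate 2 was above all 3 WT libraries for the nuclear set and between them for the mitochondrial one. These positions depend on the scaling, with TMM factors of 1.13, 0.917 and 1.22 in TKO. As unscaled shares of all counts, the nuclear subunits of TKO replicate 2 were at 0.469%, within the WT range of 0.448 to 0.49%. By that measure its mitochondrially encoded subunits lay below the 3 WT libraries. The lowest library for the nuclear subunits was then δKO replicate 1, at 0.36%. Within TKO, replicate 2 was the highest library for 62 of the 78 nuclear subunits, and replicate 3 the lowest for 42. The median coefficient of variation of a nuclear subunit between libraries reached 14.3% in WT, 36.8% in δKO and 39.99% in TKO, beside 32.9%, 69.2% and 42.7% for all genes tested.

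Without TKO replicate 2, 73 of 78 nuclear subunits were lower in TKO than in WT, with a median of -0.52, and 69 of 78 lower than in δKO, with a median of -0.66. The mitochondrially encoded medians without TKO replicate 2 were -0.83 and -0.98. Leaving out either low TKO library moved the nuclear median toward 0. Without TKO replicate 1 it was -0.15 against WT and -0.18 against δKO, and without TKO replicate 3 it was -0.16 and -0.14. Leaving out both δKO libraries with few genes detected, which leaves 1 δKO library, gave 69 of 78 nuclear subunits lower in TKO than in δKO (median -0.53) and 60 of 78 higher in δKO than in WT (median 0.18). The lone δKO library is then assumed to vary like the other groups.

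**Figure D3:**
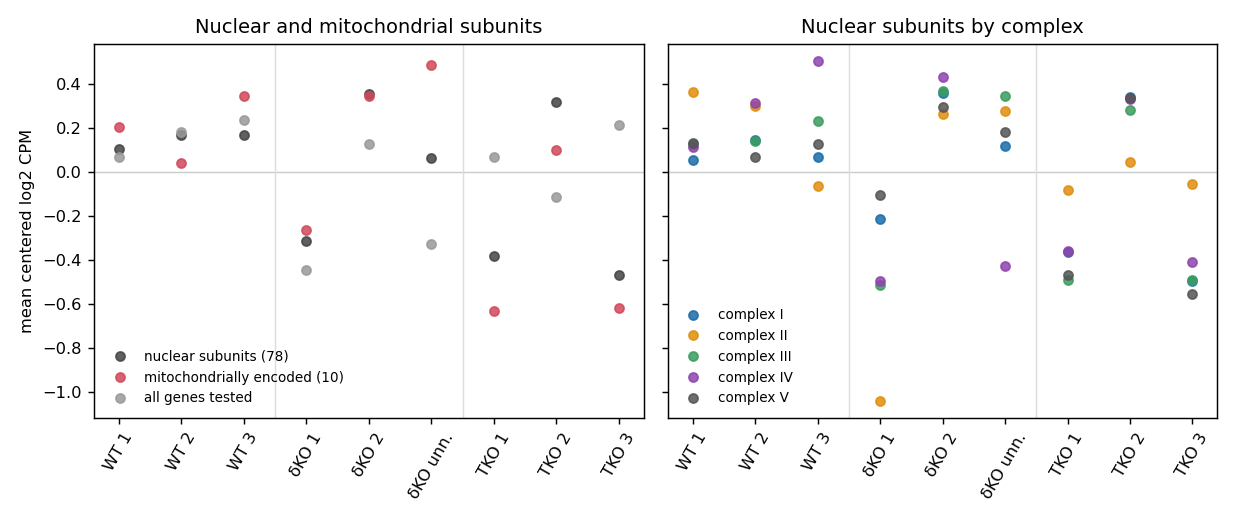
Mean centered log2 CPM per library (y axis) for all nuclear subunits, the mitochondrially encoded ones and all genes tested (left) and for the nuclear subunits of each complex (right), with 1 point per library and group of genes. TKO replicates 1 and 3 lie below 0 for every group of subunits shown, TKO replicate 2 lies above 0, and complex II is at -1.04 in δKO replicate 1.

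Summed over genes, nuclear subunits were at 4748, 4437 and 4342 CPM in WT, 4611, 5022 and 4697 CPM in δKO and 3378, 5122 and 3065 CPM in TKO, and mitochondrially encoded subunits at 12176, 10213 and 11355 CPM in WT, 9240.2, 11916 and 14751 CPM in δKO and 6270.2, 9968 and 6182 CPM in TKO. The quotient of mitochondrial to nuclear counts came to 2.56, 2.302 and 2.62 in WT, 2.004, 2.37 and 3.14 in δKO and 1.86, 1.95 and 2.02 in TKO. In this quotient the 3 TKO libraries, replicate 2 included, lay below the 3 WT libraries, while δKO replicate 1 lay among the TKO libraries. The mitochondrial sum is made up mainly of mt-Co1 and mt-Cytb.

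Myeloid progenitor genes were low in the same libraries as the nuclear subunits by mean centered log2 CPM. The summed level of 6 myeloid progenitor genes (Mpo, Elane, Ctsg and others) came to 12535, 4722 and 2666 CPM in WT, 181, 4386 and 11360.2 CPM in δKO and 99.5, 2960.5 and 649.7 CPM in TKO. By summed CPM the nuclear subunits of δKO replicate 1, at 4611, lay within the WT range of 4342 to 4748. By mean centered log2 CPM, TKO replicates 1 and 3 and δKO replicate 1 were the 3 lowest libraries for the nuclear subunits. The same 3 libraries were lowest in the myeloid progenitor genes by both measures. All 6 had lower fitted means in TKO than in WT, with a median log2 fold change of -2.36, and 0 at an unadjusted p under 0.05. The mean centered log2 CPM of 18 proliferation genes came to 0.37, 0.16 and 0.03 in WT, -0.06, 0.32 and 0.63 in δKO and -0.63, -0.23 and -0.59 in TKO, and all 18 were lower in TKO than in WT (median -0.66) and than in δKO (median -0.72), 7 and 10 of them at an unadjusted p under 0.05. By library they differed from the subunits in mean centered log2 CPM, since TKO replicate 2 was low for proliferation and high for the nuclear subunits. The 10 neutrophil genes summed to 491 to 8737 CPM in WT, 132 to 1736 CPM in δKO and 83.7 to 542 CPM in TKO, highest in WT replicate 3, with 6 of 10 lower in TKO than in WT at an unadjusted p under 0.05. In bulk RNA, fewer cells of a type and less RNA per cell cannot be told apart, and the part of these genes, of mitochondrial ribosomal RNA and of library depth in the values of the subunits was not tested.

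**Figure D4:**
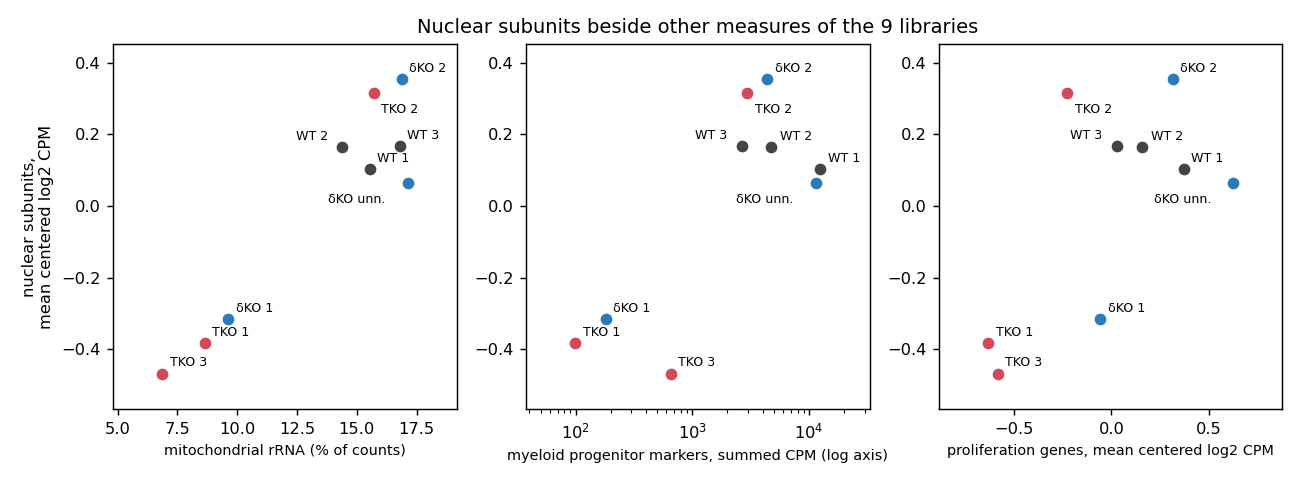
Mean centered log2 CPM of the 78 nuclear subunits (y axis) in each of the 9 libraries against the percent of counts in mitochondrial ribosomal RNA, the summed CPM of 6 myeloid progenitor markers (log axis) and the mean centered log2 CPM of 18 proliferation genes. TKO replicates 1 and 3 and δKO replicate 1 lie at the lower left of the first 2 panels, apart from the other 6 libraries.

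Complex I oxidises NADH at its matrix arm (Ndufv and Ndufs subunits) and pumps protons through its membrane arm. Its 36 nuclear subunits all passed the filter. Ndufs3 (chr2:90894634-90904827, GRCm38 here and below), a core subunit of the matrix arm, was at 17.9, 19.6 and 17.4 CPM in WT, 33.5, 32.3 and 38.7 CPM in δKO and 13.9, 16.9 and 19.6 CPM in TKO. The δKO libraries were all above the other 6, with log2 fold changes of -1.05 (SE 0.36, edgeR unadjusted p = 0.013) for TKO against δKO and 0.93 (SE 0.36, edgeR unadjusted p = 0.023) for δKO against WT. DESeq2 on all 9 libraries gave an adjusted p of 0.0011 for the first and 0.011 for the second, which stayed under 2-fold. A share of 39.7% of its windows is shared with other genes, most of them with the pseudogene Gm12251, so its counts are uncertain. Ndufb7 (chr8:83566671-83571626), an accessory subunit of the membrane arm, was at 24.7, 19.2 and 15.5 CPM in WT, 43.4, 18.2 and 47.7 CPM in δKO and 11.5, 15.3 and 8.52 CPM in TKO. TKO lay below all other libraries, and the log2 fold change against δKO was -1.63 (SE 0.47, edgeR unadjusted p = 0.0049), with an adjusted p of 0.019 in DESeq2. Ndufa11 (chr17:56717767-56722141), a membrane arm subunit needed for assembly, was at 11.2, 10.5 and 4.51 CPM in WT, 27.3, 7.69 and 23.2 CPM in δKO and 4.91, 6.07 and 2.99 CPM in TKO. Its log2 fold change for TKO against δKO was -2.06 (SE 0.66, edgeR unadjusted p = 0.0095), with 0.024 as DESeq2's adjusted p. Of the windows of Ndufa11, 6.1% are shared with other genes, most of them with the pseudogene Ndufa11b, which was high in δKO replicate 1 only. The part of this in its counts was not tested. The high δKO values of Ndufb7 and Ndufa11 were those of replicate 1 and the unnumbered library, the ones with few genes detected. Leaving out this pair of libraries, a setting added after seeing the data, gave log2 fold changes of -0.63 for Ndufb7 and -0.73 for Ndufa11.

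For TKO against WT, the complex I subunits with the smallest p-values were Ndufa1 and Ndufa5. Ndufa1, a small membrane arm subunit encoded on the X chromosome, was at 34.05, 26.1 and 30.5 CPM in WT, 19.7, 31.5 and 17.5 CPM in δKO and 6.06, 24.3 and 13.4 CPM in TKO, with all TKO libraries below all WT libraries and a log2 fold change of -1.05 (SE 0.51, edgeR unadjusted p = 0.062). Ndufa5, an accessory subunit of the matrix arm, went the other way. It was at 13.4, 9.62 and 8.55 CPM in WT, 32.5, 16.5 and 24.3 CPM in δKO and 13.5, 35.4 and 13.5 CPM in TKO, with both δKO and TKO above WT in every library and log2 fold changes of 0.98 (SE 0.52, edgeR unadjusted p = 0.082) for TKO and 1.22 (SE 0.52, edgeR unadjusted p = 0.038) for δKO against WT. Without TKO replicate 2 the first was 0.36, and the log2 fold change of Ndufa1 ran from -1.64 without TKO replicate 2 to -0.69 without TKO replicate 1. Of all 36 subunits, 7 did not overlap and were lower in TKO than in WT (7.47% of all genes) and 2, Ndufa5 and Ndufb2, were higher (6.88%). Against δKO, 7 were lower and 1 higher without overlap (4.74% and 6.98% of all genes). Ndufv1, which binds the NADH-oxidising flavin, was at 3.71 CPM in δKO replicate 1 and 17.5 to 55.9 CPM in the other 8 libraries.

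Other complex I subunits whose TKO libraries lay below all WT libraries were Ndufa8, Ndufa9, Ndufa10, Ndufb9 and Ndufb10, all accessory subunits. These 5, and Ndufv3, Ndufb2, Ndufv1 and Atp5o, are named here after their values were seen. Ndufa9, at the junction of the 2 arms, was at 31.1, 32.2 and 32.9 CPM in WT, 35.3, 32.4 and 87.2 CPM in δKO and 24.2, 22.3 and 23.2 CPM in TKO. TKO was below both other genotypes without overlap, with log2 fold changes of -0.46 (SE 0.40, edgeR unadjusted p = 0.27) against WT and -1.15 (SE 0.40, edgeR unadjusted p = 0.015) against δKO. Ndufb9 was at 48.2, 47.4 and 50.6 CPM in WT, 44.4, 43.9 and 89.1 CPM in δKO and 41.1, 38.6 and 27.9 CPM in TKO, and its log2 fold changes were -0.44 against WT and -0.72 against δKO, again with TKO below both, while 23.4% of its windows are shared with Gm49356. Ndufa8 was at 32.1, 34.2 and 35.2 CPM in WT, 7.499, 38.5 and 67.8 CPM in δKO and 27.02, 31.2 and 23.9 CPM in TKO. Ndufa10 was at 69.7, 69.9 and 76.9 CPM in WT, 29.997, 104 and 70.3 CPM in δKO and 43.4, 58.3 and 58.2 CPM in TKO. Ndufb10 was at 25.98, 42.4 and 38.2 CPM in WT, 6.78, 24.8 and 66.6 CPM in δKO and 16.6, 18.4 and 10.7 CPM in TKO. In these 3 genes the δKO libraries overlapped with TKO, and the log2 fold changes against WT were -0.31, -0.44 and -1.22. Ndufv3, a small subunit of the NADH-oxidising module, was at 41.2, 32.03 and 32.9 CPM in WT, 66.8, 40.3 and 42.1 CPM in δKO and 35.8, 22.6 and 25.8 CPM in TKO, with a log2 fold change of -0.83 (SE 0.34, edgeR unadjusted p = 0.033) for TKO against δKO and TKO below δKO in every library. Ndufb2, a small membrane arm subunit, was at 4.18, 3.58 and 5.64 CPM in WT, 5.39, 6.500 and 3.02 CPM in δKO and 14.04, 7.47 and 7.99 CPM in TKO, with TKO above both other genotypes in every library. Over all 36 subunits the log2 fold changes ran from -1.22 to 1.14 for TKO against WT and from -2.06 to 1.16 for TKO against δKO.

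Complex II, succinate dehydrogenase, also belongs to the tricarboxylic acid cycle. Sdha, its flavoprotein, was at 285, 207 and 186 CPM in WT, 681, 247 and 302 CPM in δKO and 223, 264 and 194 CPM in TKO. The value of δKO replicate 1 was above all others, and the log2 fold changes were -0.85 (SE 0.36, edgeR unadjusted p = 0.034) for TKO against δKO and 0.86 (SE 0.36, edgeR unadjusted p = 0.033) for δKO against WT. Without that library they were -0.28 and 0.28. Sdhb, the iron-sulfur subunit, was at 23.9, 30.2 and 16.4 CPM in WT, 1.48, 22.97 and 20.9 CPM in δKO and 16.8, 19.6 and 24.5 CPM in TKO. Here the same δKO library was lowest, with log2 fold changes of TKO at -0.21 against WT and 0.42 against δKO, the second of which turned to -0.12 without δKO replicate 1. Of the 2 membrane anchors, Sdhc was at 120.5, 93.4 and 100.02 CPM in WT, 82.2, 103 and 143 CPM in δKO and 124, 80.4 and 106 CPM in TKO, with log2 fold changes of TKO at -0.02 against WT and -0.08 against δKO and all 3 genotypes overlapping. Sdhd, the other anchor, was at 58.8, 69.3 and 48.7 CPM in WT, 11.7, 63.04 and 42.4 CPM in δKO and 30.5, 48.6 and 30.4 CPM in TKO. TKO lay below WT in every library, with a log2 fold change of -0.69 (SE 0.50, edgeR unadjusted p = 0.19). The log2 fold change of δKO against WT was -0.59, or -0.16 without δKO replicate 1 and -1.12 without δKO replicate 2. In δKO replicate 1, Sdha was at its highest while Sdhb and Sdhd were at their lowest.

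Complex III passes electrons from ubiquinol to cytochrome c. All 8 nuclear subunits had lower fitted means in TKO than in WT, from -0.75 to -0.05 on the log2 scale, none at an unadjusted p under 0.05. Uqcr10, a small accessory subunit, was at 15.03, 15.6 and 22.8 CPM in WT, 15.1, 23.2 and 11.2 CPM in δKO and 12.1, 12.2 and 7.48 CPM in TKO, with log2 fold changes of TKO at -0.75 (SE 0.49, edgeR unadjusted p = 0.15) against WT and -0.64 (SE 0.48, edgeR unadjusted p = 0.21) against δKO, the latter -0.32 without δKO replicate 2. Uqcrfs1, the Rieske iron-sulfur protein, was at 25.98, 31.3 and 32.7 CPM in WT, 19.6, 35.05 and 52.5 CPM in δKO and 22.4, 24.3 and 24.98 CPM in TKO. TKO was below WT in every library, with log2 fold changes of -0.58 for TKO against δKO and 0.25 for δKO against WT. Without the unnumbered δKO library these were -0.20 and -0.13. Uqcrb, another small subunit, had a log2 fold change of -0.44 (SE 0.49, edgeR unadjusted p = 0.38) for TKO against WT, or -0.28 without TKO replicate 3. Uqcrc1, a core subunit, was at 133, 70.2 and 76.2 CPM in WT, 13.3, 77.7 and 113 CPM in δKO and 88.4, 71.5 and 65.02 CPM in TKO. It was lowest in δKO replicate 1, and the log2 fold change of -0.45 for δKO against WT became 0.04 without that library.

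Complex IV, cytochrome c oxidase, has subunits with isoforms that differ between tissues, and in the pairs below the form found in most tissues had the higher level. Cox4i1, the main form of subunit 4, was at 41.4, 44.2 and 54.6 CPM in WT, 84.3, 50.9 and 44.8 CPM in δKO and 23.4, 60.7 and 31.6 CPM in TKO, and Cox4i2, the form known from lung and hypoxic cells, at 0.689, 1.31 and 6.95 CPM in WT, 0.0399, 4.15 and 0.0737 CPM in δKO and 1.15, 0.668 and 0.678 CPM in TKO. The log2 fold change of Cox4i1 was -0.64 for TKO against δKO and 0.36 for δKO against WT, or -0.31 and 0.0345 without δKO replicate 1. That of Cox4i2 was -1.84 for TKO against WT. WT replicate 3 stood far above the other WT and TKO libraries for Cox4i2, and without it this log2 fold change was -0.26. Per kb, Cox4i1 was at 31.3 CPM per kb and Cox4i2 at 2.21. Cox6a1 was the most abundant nuclear subunit per kb, at 232 CPM per kb over all libraries, against 0.234 for Cox6a2, its heart and muscle form. Cox6b1 was at 70.4 CPM per kb and Cox6b2, known from testis, at 9.95. Cox8a was at 226 CPM per kb and Cox8b at 0.157, while Cox8c, Cox7b2 and Ndufa4l2 had 0 counts in all 9 libraries, which allows up to 3 counts per library for counting error only. Ndufa4, now placed in complex IV, was at 92.8, 106 and 85.2 CPM in WT, 41.7, 111 and 141 CPM in δKO and 52.6, 142 and 35.6 CPM in TKO. Cox6b1 was at 43.3, 62.2 and 60.2 CPM in WT, 19.3, 76.9 and 70.8 CPM in δKO and 31.8, 53.2 and 30.96 CPM in TKO, with a log2 fold change of -0.51 (SE 0.46, edgeR unadjusted p = 0.29) for TKO against WT, or -0.82 without TKO replicate 2.

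Cox7a1 (chr7:30184144-30186078), the heart and muscle form of subunit 7a, was the nuclear subunit with the largest fitted differences. It was at 1.61, 1.57 and 2.08 CPM in WT, 0.0399, 0.392 and 0.0369 CPM in δKO and 3.63, 3.02 and 1.89 CPM in TKO. In δKO these values rest on few reads: 96, 83 and 87 counts in WT, 1, 22 and 1 in δKO, and 190, 104 and 89 in TKO. All δKO libraries were below all others, with a fitted log2 fold change of 4.10 (SE 1.27, edgeR unadjusted p = 0.0075) for TKO against δKO and -3.41 (SE 1.23, edgeR unadjusted p = 0.018) for δKO against WT, where the effect of the prior count on the size was not tested. Without δKO replicate 2 these were 6.11 and -5.41. DESeq2 on all 9 libraries called both, with adjusted p-values of 0.00056 and 0.018. TKO and WT overlapped, with a log2 fold change of 0.70. Cox7a2, the form found in most tissues, was at 21.1, 20.4 and 20.8 CPM in WT, 20.6, 35.01 and 14.5 CPM in δKO and 16.96, 18.7 and 16.9 CPM in TKO, and at 21.8 CPM per kb against 2.96 for Cox7a1.

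Complex V, ATP synthase, consists of the catalytic F1 head and the proton channel F0. Atp5g1, 1 of 3 genes for the c subunit of the channel ring, was the only nuclear subunit with an unadjusted p under 0.05 for TKO against WT. It was at 88.95, 87.1 and 75.9 CPM in WT, 56.8, 94.2 and 73.4 CPM in δKO and 42.2, 60.04 and 47.7 CPM in TKO. Every TKO library but replicate 2 lay below all others, replicate 2 lay below WT and above δKO replicate 1, and the log2 fold change was -0.75 (SE 0.28, edgeR unadjusted p = 0.021), with an adjusted p of 1.0. Its paralogs Atp5g2 and Atp5g3, whose proteins are the same after import, were counted as well. Atp5g2 was at 15.7, 19.6 and 16.9 CPM in WT, 12.4, 14.3 and 6.64 CPM in δKO and 12.1, 14.2 and 13.6 CPM in TKO, with TKO below WT in every library, and Atp5g3 at 51.4, 42.1 and 46.5 CPM in WT, 14.2, 62.9 and 30.1 CPM in δKO and 22.2, 45.4 and 28.1 CPM in TKO, with overlap. Of the windows of Atp5g1, 11.6% are shared with other genes. Atp5b, the catalytic β subunit and among the most abundant members, was at 810.0, 741 and 717 CPM in WT, 744, 706 and 556 CPM in δKO and 531, 673 and 553 CPM in TKO. All TKO libraries were below all WT libraries, with a log2 fold change of -0.37 (SE 0.20, edgeR unadjusted p = 0.098). Atp5mpl, a small proteolipid of the complex, was at 7.21, 9.37 and 8.05 CPM in WT, 11.2, 11.8 and 34.4 CPM in δKO and 4.51, 10.8 and 3.52 CPM in TKO, with a log2 fold change of -1.61 (SE 0.66, edgeR unadjusted p = 0.032) for TKO against δKO and 1.22 (SE 0.65, edgeR unadjusted p = 0.087) for δKO against WT. Without the unnumbered δKO library these were -0.88 and 0.49. Atp5h, the d subunit of the stalk, was at 102, 133 and 119 CPM in WT, 199, 127 and 200.3 CPM in δKO and 87.98, 161 and 68.2 CPM in TKO, with log2 fold changes of -0.73 (SE 0.33, edgeR unadjusted p = 0.049) and 0.57 (SE 0.33, edgeR unadjusted p = 0.11) in the same comparisons. Without TKO replicate 2 the first was -1.17, and 23.8% of the windows of Atp5h are shared with other genes, so its counts are uncertain. Atp5o, the stalk subunit that confers oligomycin sensitivity, was at 35.9, 34.9 and 37.1 CPM in WT, 43.2, 39.2 and 52.7 CPM in δKO and 32.5, 35.1 and 25.7 CPM in TKO. All δKO libraries were above the others, but 34.9% of its windows are shared with a gene on the other strand, so its counts are uncertain. Over the 16 subunits the log2 fold changes ran from -0.75 to 0.03 for TKO against WT and from -1.61 to 0.30 for TKO against δKO.

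Levels per kb differed widely among the tested nuclear subunits, although the proteins stand in fixed ratios in each complex. The 5 highest were Cox6a1 (232 CPM per kb), Cox8a (226 CPM per kb), Atp5b (158 CPM per kb), Atp5a1 (147 CPM per kb) and Cox7c (123 CPM per kb). The 5 lowest were Atp5l (0.788), Ndufb2 (1.14), Cox4i2 (2.21), Ndufa6 (2.63) and Cox5a (2.89). Atp5l and Ndufb2 have merged exons of 6443 and 5628 bases, and a long merged exon lowers a value per kb. The plot of levels per kb shows the spread in each complex and genotype.

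**Figure D5:**
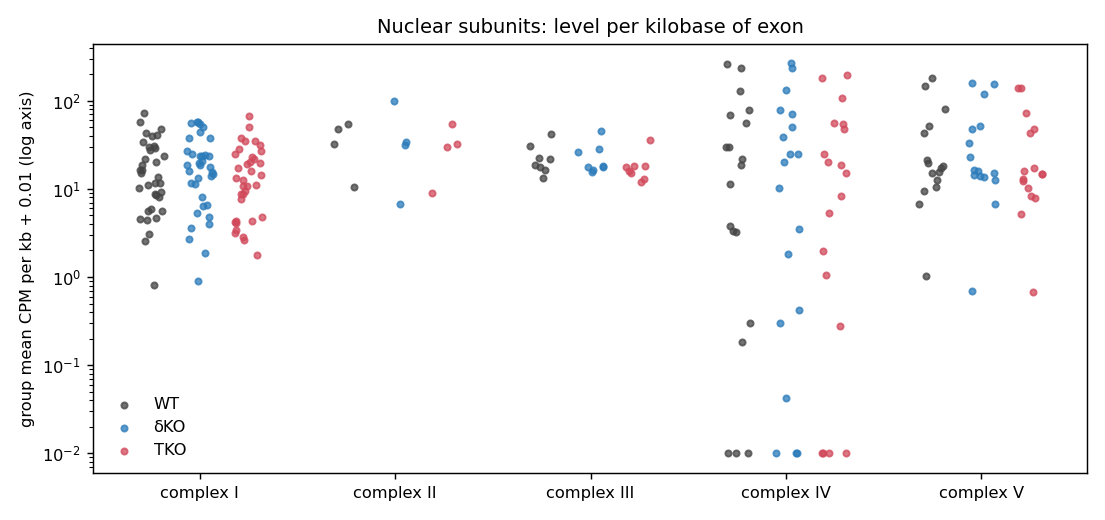
Mean CPM per kb of merged exon after adding 0.01 (log y axis) for each of the 83 nuclear subunits, grouped by complex (x axis), with 1 point per gene and genotype. Cox6a1 and Cox8a are the highest points of complex IV, and the points at the bottom of complex IV are isoforms with 0 or few counts.

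The 14 assembly factors help build the complexes but are not lasting parts of them. Their median log2 fold change was -0.22 for TKO against WT, 0.44 for TKO against δKO and -0.49 for δKO against WT, and 9, 5 and 10 of 14 were lower. No test of their difference from the subunits was made. Ndufaf1, an early assembly factor of complex I, was at 22.8, 24.2 and 26.4 CPM in WT, 8.18, 17.3 and 9.92 CPM in δKO and 20.3, 26.2 and 26.1 CPM in TKO. The δKO libraries were below all others, with log2 fold changes of 1.03 (SE 0.42, edgeR unadjusted p = 0.031) for TKO against δKO and -1.05 (SE 0.42, edgeR unadjusted p = 0.029) for δKO against WT. The lowest δKO values, 8.18 and 9.92 CPM, were those of the libraries with few genes detected. Over all alternatives run, the values nearest 0 were 0.48 and -0.50. Sdhaf3, an assembly factor of complex II, was at 6.23, 2.52 and 4.25 CPM in WT, 0.0798, 1.39 and 1.696 CPM in δKO and 3.06, 1.28 and 4.39 CPM in TKO, with a log2 fold change of -2.03 (SE 1.12, edgeR unadjusted p = 0.095) for δKO against WT. Ndufaf7, an assembly factor of complex I, was at 8.67, 11.2 and 15.1 CPM in WT, 15.6, 14.8 and 14.3 CPM in δKO and 4.17, 9.68 and 9.71 CPM in TKO, with log2 fold changes of TKO at -0.57 against WT and -0.92 against δKO. The value against WT was -0.27 without TKO replicate 1 and -0.35 without WT replicate 3. Ndufaf4, another complex I factor, had a log2 fold change of -0.64 for TKO against WT, or -0.22 without WT replicate 2. Cox7a2l, which links complexes III and IV in supercomplexes, was at 70.9, 66.5 and 93.4 CPM in WT, 43.6, 62.5 and 51.9 CPM in δKO and 50.4, 103 and 75.5 CPM in TKO. Among the pseudogenes, Ndufa11b was at 32.1 CPM in δKO replicate 1 and at or below 0.478 CPM in the other 8 libraries, and Atp5l-ps2 reached at most 1.18 CPM.

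Other genes of mitochondrial metabolism were described in lists, and each list's median log2 fold change is given first against WT and δKO for TKO, then against WT for δKO. The 16 genes of the tricarboxylic acid cycle had medians of -0.18, -0.28 and 0.01, and 12 and 11 of 16 were lower in TKO than in WT and than in δKO, with 0 at an unadjusted p under 0.05. Citrate synthase, Cs, which starts the cycle, was at 180.0, 157 and 120.4 CPM in WT, 141, 125 and 199.8 CPM in δKO and 119, 111 and 108 CPM in TKO, with a log2 fold change of -0.46 (SE 0.26, edgeR unadjusted p = 0.095) for TKO against δKO. The 20 genes of electron carriers and ubiquinone synthesis had medians of -0.10, -0.26 and 0.22, and 11 and 12 of 20 were lower in TKO than in WT and than in δKO. Among them Cycs, cytochrome c, was at 55.97, 51.7 and 54.1 CPM in WT, 43.3, 54.7 and 63.3 CPM in δKO and 15.5, 50.2 and 24.5 CPM in TKO, with a log2 fold change of -0.84 (SE 0.40, edgeR unadjusted p = 0.059) for TKO against WT. Etfdh, which passes electrons from fatty acid oxidation to ubiquinone, had a log2 fold change of -1.09 (SE 0.31, edgeR unadjusted p = 0.0042) for TKO against δKO. The 8 tested genes of ATP export and uncoupling had medians of -0.17, -0.09 and 0.00, and 7 and 6 of 8 were lower in TKO than in WT and than in δKO. Slc25a5, an ADP/ATP carrier, had a log2 fold change of -0.51 (SE 0.24, edgeR unadjusted p = 0.052) for TKO against δKO.

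Assembly factors outside the naming rule (32 tested) had medians of 0.04, 0.07 and -0.13, and 14 and 13 of 32 were lower in TKO than in WT and than in δKO, with 1 higher and 1 lower at an unadjusted p under 0.05 for TKO against δKO. Cox19, which takes part in copper delivery to complex IV, had a log2 fold change of 1.80 (SE 0.63, edgeR unadjusted p = 0.015) there. The 23 genes of mitochondrial genome expression had medians of 0.00, -0.25 and 0.12, and 11 and 14 of 23 were lower in TKO than in WT and than in δKO. Twnk, the helicase of mitochondrial DNA replication, was at 17.5, 20.9 and 24.7 CPM in WT, 66.6, 25.8 and 45.7 CPM in δKO and 81.6, 57.02 and 30.4 CPM in TKO, with TKO above WT in every library and a log2 fold change of 1.42 (SE 0.44, edgeR unadjusted p = 0.0076). Tfam, the factor that packages and transcribes mitochondrial DNA, had a log2 fold change of 0.94 (SE 0.50, edgeR unadjusted p = 0.087) for TKO against δKO. Of the nuclear regulators of respiration (9 tested, medians -0.06, -0.25 and 0.19, 7 and 6 of 9 were lower in TKO than in WT and than in δKO), Nrf1, a transcription factor of many respiratory genes, was at 38.9, 38.4 and 41.4 CPM in WT, 147, 46.8 and 108 CPM in δKO and 31.6, 37.6 and 44.5 CPM in TKO. The δKO libraries were above TKO, with a log2 fold change of -1.41 (SE 0.38, edgeR unadjusted p = 0.0032), and Gabpa, a subunit of another such factor, had -0.60 (SE 0.25, edgeR unadjusted p = 0.036) in the same comparison. The high δKO values of Nrf1, 147 and 108 CPM, were those of replicate 1 and the unnumbered library, the ones with few genes detected. Mitophagy genes (11 tested) had medians of -0.18, -0.04 and 0.10, and 8 and 7 of 11 were lower in TKO than in WT and than in δKO, with 0 higher and 3 lower at an unadjusted p under 0.05 for TKO against δKO.

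Summed marker levels of the other lists were as follows. The 5 sorting markers, of which Flt3 (Flk2) and Cd48 mark excluded cells, were at 617 to 650.1 CPM in WT, 577 to 1101 CPM in δKO and 659 to 820.1 CPM in TKO. The sum was highest in δKO replicate 1, where Kit alone was at 949 CPM, but their mean centered log2 CPM was lowest there, at -0.86 against 0.07 to 0.25 in WT, with Ly6a (Sca1) at 2.15 CPM. Erythroid genes (8 of 10 tested) were at 8.48 to 118 CPM in WT, 16.2 to 77.8 CPM in δKO and 23.99 to 73.5 CPM in TKO, and megakaryocyte genes at 161 to 575 CPM in WT, 386 to 486 CPM in δKO and 312 to 527 CPM in TKO. B lymphocyte genes (5 of 8 tested) were at 8.06 to 10.8 CPM in WT, 7.45 to 12.4 CPM in δKO and 4.68 to 12.3 CPM in TKO, and T and NK lymphocyte genes (5 of 10 tested, 3 with no count in any library) at 83.4 to 237 CPM in WT, 55.4 to 195 CPM in δKO and 34.8 to 75.6 CPM in TKO. Macrophage and monocyte genes were at 89.3 to 142 CPM in WT, 66.3 to 251 CPM in δKO and 45.1 to 121 CPM in TKO, and genes of stroma and endothelium at 59.9 to 79.1 CPM in WT, 69.1 to 103 CPM in δKO and 82.3 to 101 CPM in TKO. The macrophage and monocyte, T and NK lymphocyte and neutrophil sums were lowest in TKO replicates 1 and 3 and δKO replicate 1, the libraries with the lowest mean centered log2 CPM of the nuclear subunits. By the mean centered log2 CPM, which weights the tested genes equally, this held for the macrophage and monocyte genes alone among these 3 lists. WT replicate 1 lay below TKO replicate 3 for the neutrophil genes. The T and NK lymphocyte genes came to -0.08 to 0.46 in WT, -1.03 to -0.12 in δKO and -0.25 to 0.88 in TKO, highest in TKO replicate 1, and 4 of the 5 tested had higher fitted means in TKO than in WT (median log2 fold change 0.49). Nkg7 made the largest part of their sum in every library but δKO replicate 1, where Lck did.

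As a description, promoters of the nuclear subunits were compared with all promoters, which include those of genes that did not pass the filter here. RefSeq promoters (GRCm38.p6, 250 bases before to 50 after the start) were found for 66 of the 83 nuclear subunits, with 71 starts. The motif CGCATGCG, the core of NRF1 sites and a palindrome, was present on either strand in 9 of 71 (12.7%), against 1.87% of all 32851 promoters. CCGGAAG, the core bound by ETS factors such as GABPA, was in 16 (22.5%, against 8.86%), and AAGATGGCG, bound by YY1, in 7 (9.86%, against 1.400%). Such matches describe letters, and the motifs were not tested against expression. The 120 bases before the start are shown for 2 members described above, Ndufa11 with an NRF1 core and Sdhd with an ETS core that lies on the opposite strand and so reads reversed and complemented, in capitals, 5′ to 3′ on the strand of the gene.
Ndufa11, chr17:56717642-56717761, plus strand: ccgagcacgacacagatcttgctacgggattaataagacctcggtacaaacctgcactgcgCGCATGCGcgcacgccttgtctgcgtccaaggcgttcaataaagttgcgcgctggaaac
Sdhd, chr9:50603850-50603969, minus strand: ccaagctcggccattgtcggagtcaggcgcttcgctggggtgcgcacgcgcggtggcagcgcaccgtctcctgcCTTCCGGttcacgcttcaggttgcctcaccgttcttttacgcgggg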

How the data were processed

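Reads from 9 libraries of sorted LT-HSCs, 3 per genotype and each from 2 technical runs, were turned into gene counts by the authors, whose processing notes name bcl2fastq, Trim Galore 0.3.7, FastQC 0.11.4, STAR 2.5.1b and DESeq2. STAR gave the alignment to mm10 and the counts. The gene annotation and the treatment of multiply mapped reads are not given in the sources used here. The deposited raw table holds whole-number counts per gene, and a second deposited table holds counts that the authors scaled by DESeq2, a signal used here only for an alternative. One δKO column carried a number without a matching label and was used as a δKO library with no replicate number.

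Genes were kept with edgeR 4.0.16 (filterByExpr, minimum count 10, total 15), which left 18205, and tested with the quasi-likelihood test on TMM factors in 1 fit of all 9 libraries (R 4.3.3, 6 residual degrees of freedom), with Benjamini-Hochberg adjustment over all genes kept. A call needed an adjusted p under 0.05 and a change of more than 2-fold. The common biological coefficient of variation was 0.805. DESeq2 1.42.0 and limma 3.58.1 (on log2 of the authors' values plus 1) were alternatives, with other scalings, filters, a covariate, a block and libraries left out.

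Members and lists were chosen with earlier results of these data known. Genes are named in the text by rule: the mitochondrially encoded genes, the 2 nuclear subunits per complex and the 2 assembly factors with the smallest unadjusted p in each comparison, isoforms and gene copies, the 4 Sdh genes, the 5 highest and 5 lowest levels per kb, at most 3 genes of each other list and any member called by edgeR or DESeq2. The comparisons share groups of libraries. Zeros and levels carry counting error only where an allowed count is given, and libraries had 31300343 to 60386097 counts.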

Additional observations from a re-analysis of the deposited data

How the results depend on the processing

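The median log2 fold change of the nuclear and of the mitochondrially encoded subunits stayed below 0 under every alternative run for TKO against WT and for TKO against δKO. With 1 library left out, the nuclear median ranged from -0.52 to -0.15 against WT and from -0.66 to -0.14 against δKO (lowest without TKO replicate 2, nearest 0 without TKO replicate 1 and 3 respectively), and the mitochondrial one from -0.83 to -0.40 and from -0.98 to -0.41. For δKO against WT these ranges were -0.05 to 0.12 and -0.15 to 0.21. The number of genes called was 1 to 4 over the same omissions for TKO against WT (4 without δKO replicate 1), 0 for TKO against δKO and 1 for δKO against WT, and no member was called.

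Deviations of libraries with the same replicate number correlated by -0.04 to 0.08, beside -0.09 to 0.09 for different numbers. With 3 libraries per genotype this cannot exclude a pairing by number. A fit with the replicate number as a replicate block (3 residual degrees of freedom) also had to drop the unnumbered δKO library, which leaves 8. For δKO against WT it gave a mitochondrial median of -0.26 and Uqcrfs1 at -0.13, and leaving out that library without the block gave -0.15 and -0.13.

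The count of genes called depended on the test. For TKO against WT it was 9 in a fit of only the groups compared, 125 and 575 with DESeq2 on all 9 libraries and on the groups compared (counted over every gene DESeq2 tested, not the 18205 kept for edgeR), 5 with limma, and 9 without both δKO libraries with few genes detected, an alternative chosen after seeing the data. For TKO against δKO it was 548 and 267 with DESeq2 and 2 with limma, and for δKO against WT 0, 188, 194 and 5 in the order of only the groups compared, DESeq2 on all and on the groups compared, and limma. Members called were 1 (Ndufb10) with DESeq2 on the groups compared for TKO against WT, 4 and 1 (Cox7a1) for TKO against δKO, and 1 with DESeq2 on all 9 libraries for δKO against WT. The causes were not tested.

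With 1 library left out, the log2 fold change moved by over 1.5 times or turned in 11 of 19 named genes for TKO against WT, 12 of 20 for TKO against δKO and 7 of 12 for δKO against WT. Some named genes turned sign, Cox4i2 with a main value of -1.84 among them. For TKO against WT, Cox4i2 was at 0.13 with genes detected as covariate and Sdhb from -0.42 to 0.0061 with 1 library left out (above 0 without WT replicate 2). For TKO against δKO, Sdhb was at -0.12 to 0.85 with 1 library left out (below 0 without δKO replicate 1) and -0.18 without both low δKO libraries, and mt-Nd6 at 0.072 with upper-quartile factors, 0.028 with at least 10 counts in every library and 0.026 with limma, and from -0.29 to 0.26 with 1 library left out. For δKO against WT, Atp5h was at -0.082 and Cox4i1 at -0.090 with the covariate, Sdhd at 0.10 without both low δKO libraries, Uqcrc1 from -1.03 to 0.035 and Uqcrfs1 from -0.13 to 0.55 with 1 library left out (above 0 without δKO replicate 1 and below 0 without the unnumbered library). Upper-quartile scaling moved the median of all genes by 0.135 for TKO against δKO and -0.151 for δKO against WT, and the other scalings by less.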
